A study of Drosophila melanogaster with 12 samples.

Results

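Expression was examined of 4 genes that were on in the Malpighian tubules of Drosophila melanogaster females of the line SU26 and low in the other parental lines. The genes were CG12910, CG40485, Elk and Drsl2, 4 of the 13919 genes in the count files. They were chosen by their measured levels in the parental libraries, high in the line SU26 and low in the lines SU58 and ZI418N, so that the parental values and every percentage of SU26 describe the choice and are given without a test. The tubules, which make the urine of insects and balance their salt and water, came from flies aged 6 days, reared at 20 °C under a day of 14 h light and 10 h dark, and the labels name no other treatment. The parents were a pair of Swedish lines, SU26 and SU58, and the Zambian line ZI418N. Each pair of lines was crossed, and the hybrids were sampled in 1 order per pair (SU26xSU58, SU26xZI418N and SU58xZI418N). Without crosses in the reverse order, inheritance from the mother and from the father could not be compared. The 6 genotypes gave 2 libraries each, called biological replicates by the labels, so that n = 2 for every mean. Each population is represented by 1 or 2 lines. Whether libraries of a genotype came from separate sets of parents is not stated, and p-values measure the spread between these libraries.

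The 4 genes belong to different families. Elk encodes a voltage-gated potassium channel of the ether-a-go-go (EAG) family, whose other fly members are eag and sei. Such channels open on depolarization and let potassium leave the cell. Drsl2 belongs to the drosomycin-like genes, relatives of Drs, which encodes the antifungal peptide drosomycin and in the fat body is a target of the Toll immune pathway. CG40485 encodes a short-chain dehydrogenase, of a large family of enzymes that oxidise alcohols or reduce carbonyl groups with a nicotinamide cofactor. The RefSeq gene table lists FOHSDR as a synonym. No role is given here for CG12910. In an F1 hybrid the copies of a gene from both parents are transcribed in the same cells, and the counts analysed here are summed over both copies.

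Levels are given as CPM, the counts of a gene per 1000000 counts of its library after scaling with TMM factors, and means carry their SD. Total counts per library ranged from 30834175 to 43479929, so that 3 counts, taken as the limit of detection, correspond to 0.0692 to 0.0991 CPM. All 4 genes passed the filter on low counts, which left 9302 genes. CG40485 and Drsl2 had more than 10 counts only in libraries with an SU26 genome. The tubule markers were abundant in every library: 9 of 9 principal cell markers were detected, with a sum of 18744 and 19602 CPM in SU26 and of 12124 to 15581 CPM in the other libraries, and 8 of 8 stellate cell markers summed to 884 to 1472 CPM. Of the principal cell markers, only salt (6099 and 5172 CPM) and Uro (3948 and 4203 CPM) were higher in both SU26 libraries than in all others. ZnT35C and Irk2 had their lowest genotype means in SU26, at 426 and 184 CPM. Other tissue was present in some libraries. The 11 germ line and eggshell markers summed to 663 CPM in SU26xZI418N replicate 2 and 255 CPM in SU58 replicate 1, against 2.30 to 31.2 CPM in the other 10 libraries. In bulk tissue, fewer cells of a type and less RNA per cell cannot be told apart.

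CG12910 (FBgn0033502) was expressed at 29.0 CPM or more in every library with an SU26 genome and at 2.16 CPM or less in every library without one. It stood at 48.8 and 44.9 CPM in the SU26 libraries, at 35.4 and 31.0 CPM in SU26xSU58 and at 33.6 and 29.0 CPM in SU26xZI418N. The other genotypes were low, with 1.86 and 2.16 CPM in SU58, 1.42 and 1.38 CPM in ZI418N, and 1.19 and 1.84 CPM in SU58xZI418N. No library with an SU26 genome came near any library without one, and SU26 itself stood above both hybrids. With counts of 47 to 78 per library, the gene was still detected in every library that lacked an SU26 genome.

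Elk (FBgn0011589) was high only in the SU26 line itself among these 6 genotypes. It stood at 19.7 and 11.2 CPM in SU26, and the hybrids with an SU26 genome were close to the floor set by the other lines. The SU26xSU58 libraries held 1.41 and 1.33 CPM and the SU26xZI418N libraries 1.13 and 0.946 CPM. Without an SU26 genome Elk stood at 0.511 and 0.350 CPM in SU58, 0.482 and 0.471 CPM in ZI418N, and 0.585 and 0.495 CPM in SU58xZI418N. Each hybrid with an SU26 genome therefore lay above every library without one, and the gap to SU26 was far wider.

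CG40485 (FBgn0069973) followed the same order at lower counts. It stood at 9.58 and 5.39 CPM in SU26, from 290 and 187 counts. The SU26xSU58 libraries held 0.877 and 0.824 CPM and the SU26xZI418N libraries 0.215 and 0.324 CPM, and these values did not overlap. It had 5 and 2 counts in SU58, 0 and 1 counts in ZI418N, and 2 and 2 counts in SU58xZI418N, at or close to the limit of detection.

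Drsl2 (FBgn0052279) was measurable mainly in SU26 and varied most between libraries of a genotype. It stood at 10.7 and 5.13 CPM in SU26, from 324 and 178 counts. In SU26xSU58 it had 4 counts in replicate 1 and 32 in replicate 2, or 0.0923 and 0.851 CPM. In SU26xZI418N it had 2 and 10 counts, or 0.0537 and 0.249 CPM. The genotypes without an SU26 genome had 3 and 3 counts in SU58, 4 and 0 in ZI418N, and 1 and 0 in SU58xZI418N. Replicate 1 of each hybrid with an SU26 genome thus lay within the range of SU58 and ZI418N, and replicate 2 lay above it.

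**Figure D1:**
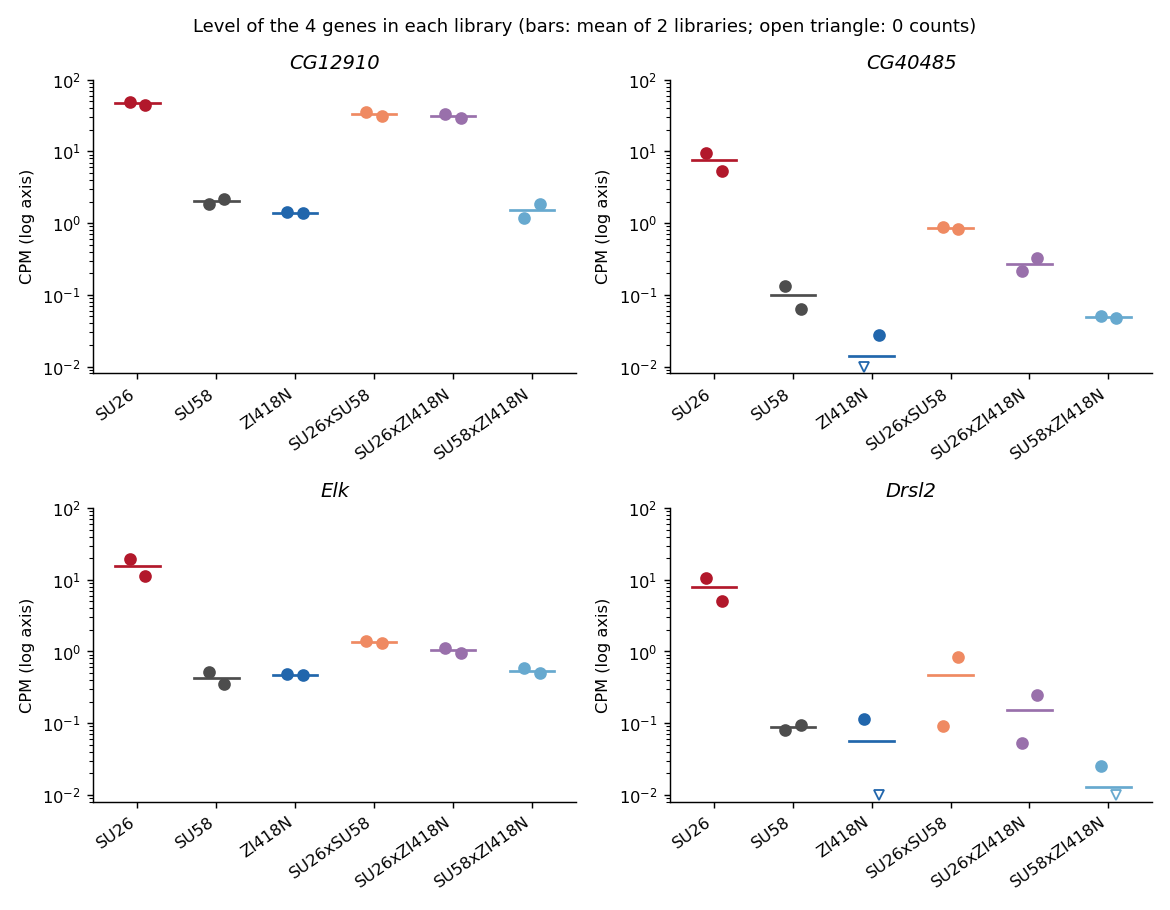
Level of CG12910, CG40485, Elk and Drsl2 in CPM on a log axis for each of the 6 genotypes. Points are the 2 libraries of a genotype, horizontal bars their mean, and open triangles at the bottom are libraries with 0 counts. CG12910 stayed at 29.0 CPM or more in the hybrids with an SU26 genome, whereas Elk, CG40485 and Drsl2 were at 1.41 CPM or less there.

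Per kilobase of gene length, Drsl2 and CG12910 had the highest levels in SU26. Their levels in SU26 were 23.8 ± 11.8 and 18.8 ± 1.11 CPM per kb, a difference smaller than the spread of Drsl2. CG40485 followed at 5.16 ± 2.05 and Elk at 2.90 ± 1.13 CPM per kb, with the lowest library of CG40485 at 3.72 and the highest of Elk at 3.70 CPM per kb. In SU26xSU58 the level per length was 13.3 ± 1.25 CPM per kb for CG12910, 1.42 ± 1.61 for Drsl2, 0.587 ± 0.0258 for CG40485 and 0.256 ± 0.0104 for Elk. Drsl2 in that hybrid therefore could not be placed against CG40485 or Elk.

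The SU26 libraries differed from each other for 3 of the 4 genes. Replicate 1 was 1.76 times replicate 2 for Elk, 1.78 times for CG40485 and 2.09 times for Drsl2. Among the 6242 tested genes with at least 5 CPM in SU26, these ratios lay at percentiles 98.9, 99.1 and 99.5. That set has no upper limit, so these genes were not compared with genes of like level alone. The ratio for CG12910 was 1.09, at percentile 74.5. Markers of hemocytes, the blood cells of insects, were also highest in SU26: all 7 were detected in the series, and they summed to 20.9 and 17.6 CPM there against 3.20 to 16.7 CPM in the other 10 libraries. The 7 genes did not move together. PPO1 and PPO2, prophenoloxidase genes of crystal cells, stood at 6.44 and 5.22 CPM in SU26 replicate 1 against 2.97 CPM each in replicate 2, and eater at 0.463 against 0.346 CPM. Hml ran the other way, at 6.15 against 9.01 CPM, and NimC1 stood at 0.859 and 0.893 CPM. Pxn was higher in ZI418N, at 3.18 and 3.30 CPM, than in SU26, at 1.75 and 1.38 CPM, and He had 0 counts in both SU26 libraries. The part of hemocyte and principal cell RNA in the SU26 levels was not tested. Of the other lists, neither the neuron, muscle, gut, fat body, salivary gland nor germ line markers were higher in both SU26 libraries than in all others.

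Set against SU26, the hybrids kept most of the level of CG12910 and little of that of the other genes. The mean of the parents, in CPM, lies near 50% of SU26 for all 4 genes, between 50.1% and 52.1%. CG12910 reached 75.5% and 66.1% of the SU26 mean in the libraries of SU26xSU58 and 71.6% and 61.9% in those of SU26xZI418N. All 4 libraries lay above the mean of the parents, with the genotype means at 136% and 130% of it.

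Elk stood at 9.09% and 8.59% of the SU26 mean in SU26xSU58 and at 7.29% and 6.11% in SU26xZI418N. This was 17.2% and 13.0% of the mean of its parents. In SU58xZI418N, whose parents both held it at a low level, Elk stood at 3.49% ± 0.41 of SU26 (SD, n = 2), against 2.78% ± 0.74 in SU58 and 3.08% ± 0.05 in ZI418N.

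CG40485 stood at 11.4% ± 0.50 of the SU26 mean in SU26xSU58 and at 3.60% ± 1.03 in SU26xZI418N (SD, n = 2). Drsl2 reached 1.17% and 10.7% in the SU26xSU58 libraries and 0.679% and 3.14% in those of SU26xZI418N. All of these values were below the mean of the parents. Because the SU26 libraries served both to pick the genes and as the reference, a chance high in SU26 lowers these percentages. With SU26 replicate 1 as the only reference, SU26xSU58 stood at 6.94% for Elk and 8.875% for CG40485, and with replicate 2 at 12.2% and 15.8%.

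The hybrids allowed a comparison between libraries whose levels were not part of the rule for the choice. The parental libraries still entered the filter and the shared estimate of spread behind its p-values. Earlier results of these data were also known when the genes were chosen. SU26xSU58 and SU58xZI418N share SU58 and differ in whether the other genome is SU26 or ZI418N. Of the 4 genes, 2 were higher in SU26xSU58 by edgeR's quasi-likelihood test at a Benjamini-Hochberg adjusted p under 0.05, where 1.27% of the 9302 genes tested were called higher and 2.89% in either direction. CG12910 was 21.8-fold higher (33.2 ± 3.11 against 1.52 ± 0.456 CPM, log2 fold change 4.44 ± 0.19 (SE), adjusted p = 2.25e-05). CG40485 was 16.3-fold higher (0.850 ± 0.037 against 0.049 ± 0.0026 CPM, log2 fold change 4.03 ± 0.59, adjusted p = 0.0081). Its call was lost without SU58xZI418N replicate 1 (adjusted p = 0.0826) or replicate 2 (0.0837), while its log2 fold change was 4.08 and 3.98. From the counts alone, 69 against 4, its ratio was 17.4 (exact 95% interval 6.50 to 65.7, for counting error only). The SE was derived from the log2 fold change and the F statistic of the contrast, and is a rough guide at few counts.

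Elk and Drsl2 did not pass in that comparison. Elk stood at 1.37 ± 0.056 CPM in SU26xSU58 and 0.540 ± 0.063 CPM in SU58xZI418N, a log2 fold change of 1.34 ± 0.32 (adjusted p = 0.0663). It passed without SU26 replicate 2 (0.0411) and with DESeq2 (0.0366), and its adjusted p reached 0.301 without SU58xZI418N replicate 2. Drsl2 had 36 counts in the SU26xSU58 libraries and 1 in those of SU58xZI418N, a ratio of 36.4 after scaling (exact 95% interval 6.12 to 1475, for counting error only). Its log2 fold change was 4.90 ± 1.57 with an adjusted p of 0.171 by edgeR and of 0.0496 by DESeq2. Without SU26xSU58 replicate 2 the log2 fold change was 2.61 (adjusted p = 0.703). For all 4 genes both SU26xSU58 libraries lay above both SU58xZI418N libraries, as did those of 22.3% of the genes tested.

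SU26xZI418N and SU58xZI418N share ZI418N and differ in the Swedish genome. In this comparison 1 of the 4 genes was higher, where 0.484% of genes tested were called higher in SU26xZI418N and 2.06% in either direction. CG12910 was 20.5-fold higher (31.3 ± 3.22 CPM, log2 fold change 4.36 ± 0.19, adjusted p = 2.22e-05). CG40485 (log2 fold change 2.39 ± 0.63) had an adjusted p of 0.107, and of 0.0425 without SU26xZI418N replicate 1. Elk (0.94 ± 0.32 on the log2 scale) had an adjusted p of 0.16. Drsl2, with 12 counts against 1, had a ratio of 12.7 (exact 95% interval 1.88 to 542, for counting error only) and an adjusted p of 0.301. Both libraries of SU26xZI418N lay above both of SU58xZI418N for each gene, as for 22.8% of all genes tested. The comparisons with SU58xZI418N share its libraries and are not independent of each other.

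**Figure D2:**
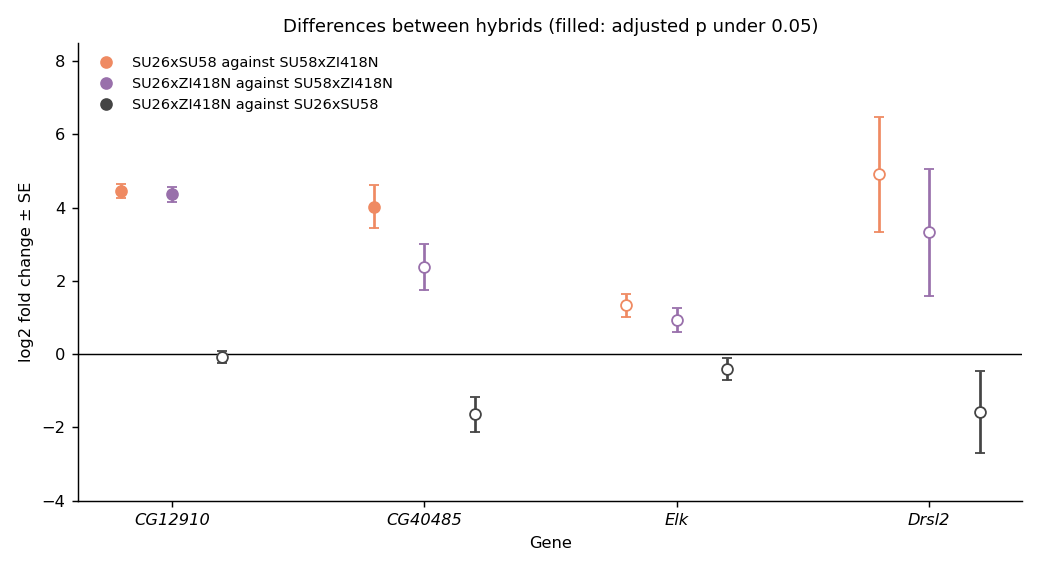
Log2 fold changes between hybrids for the 4 genes, with bars of ± 1 SE, from a fit over 12 libraries. Filled points had an adjusted p under 0.05. CG12910 was filled in both comparisons with SU58xZI418N (4.44 and 4.36) and CG40485 in 1 of them (4.03), and no gene was filled between the hybrids that share SU26.

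Between the hybrids that share SU26, none of the 4 genes passed, where 4.73% of genes tested were called in either direction. At an unadjusted p under 0.05 with edgeR 1 member passed, CG40485, as did 25.9% of genes tested. With DESeq2 the count of members at an adjusted p under 0.05 was 0, where 12.2% of the 9416 genes it tested were called. CG40485 was 3.12-fold lower in SU26xZI418N than in SU26xSU58 (log2 fold change -1.64 ± 0.48, adjusted p = 0.085, lower in 2 of 2 libraries), with DESeq2 at an adjusted p of 0.0513. The difference for CG12910 was -0.09 ± 0.16 on the log2 scale (adjusted p = 0.764), for Elk -0.40 ± 0.30 (0.434) and for Drsl2 -1.58 ± 1.11 (0.394). The direction for CG12910 turned when SU26xSU58 replicate 1 or SU26xZI418N replicate 2 was left out (0.01 and 0.02), and that for Drsl2 without SU26xSU58 replicate 2 (0.71).

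The 4 genes were part of a larger group with the same parental pattern. Taking every gene with at least 1 CPM in both SU26 libraries and at most 10% of the SU26 mean in every SU58 and ZI418N library gave 21 genes, all 4 among them, and 32 genes without SU26 replicate 2. The highest library of SU58 or ZI418N reached 1.43% of SU26 for Drsl2, 1.80% for CG40485, 3.30% for Elk and 4.61% for CG12910. Just inside the limit were CG14314 at 8.54% and Ser6 at 8.70%. Just outside were Drsl3 at 10.001% and GILT2 at 10.5%. The group lay on 2R with 8 genes, 3R with 7, and 3L and X with 3 each. The strictest of the limits tried, at most 5% of SU26, left 8 genes, among them the 4, which were chosen by these same levels.

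Within this group CG12910 was near the top and the other 3 genes near the bottom in the hybrids. The median level was 34.1% of SU26 in SU26xSU58, with a range from 0% to 90.6%, and 23.0% in SU26xZI418N, with a range from 0% to 66.8%. CG12910 ranked 2 of 21 in SU26xSU58, behind CG34305 at 90.6%, and 1 of 21 in SU26xZI418N. CG40485, Elk and Drsl2 ranked 15, 17 and 18 in SU26xSU58 and 17, 15 and 18 in SU26xZI418N. Jhe, the juvenile hormone esterase gene, lay between them at 36.3% and 25.9%, as did GstS1, a glutathione S-transferase gene, at 39.7% and 41.9%. Below 5% in both hybrids were the antibacterial peptide genes AttB, at 2.88% and 4.19%, and DptB, at 0.984% and 0.461%, and CG14205, listed at 0 in both. AttB also differed between the SU26 libraries, at 12.7 against 2.13 CPM, as did Srg2 at 49.3 against 4.29 CPM and ltl at 10.8 against 2.82 CPM. DptB and CG14205 were closer, at 3.04 against 2.36 CPM and 1.22 against 1.04 CPM.

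**Figure D3:**
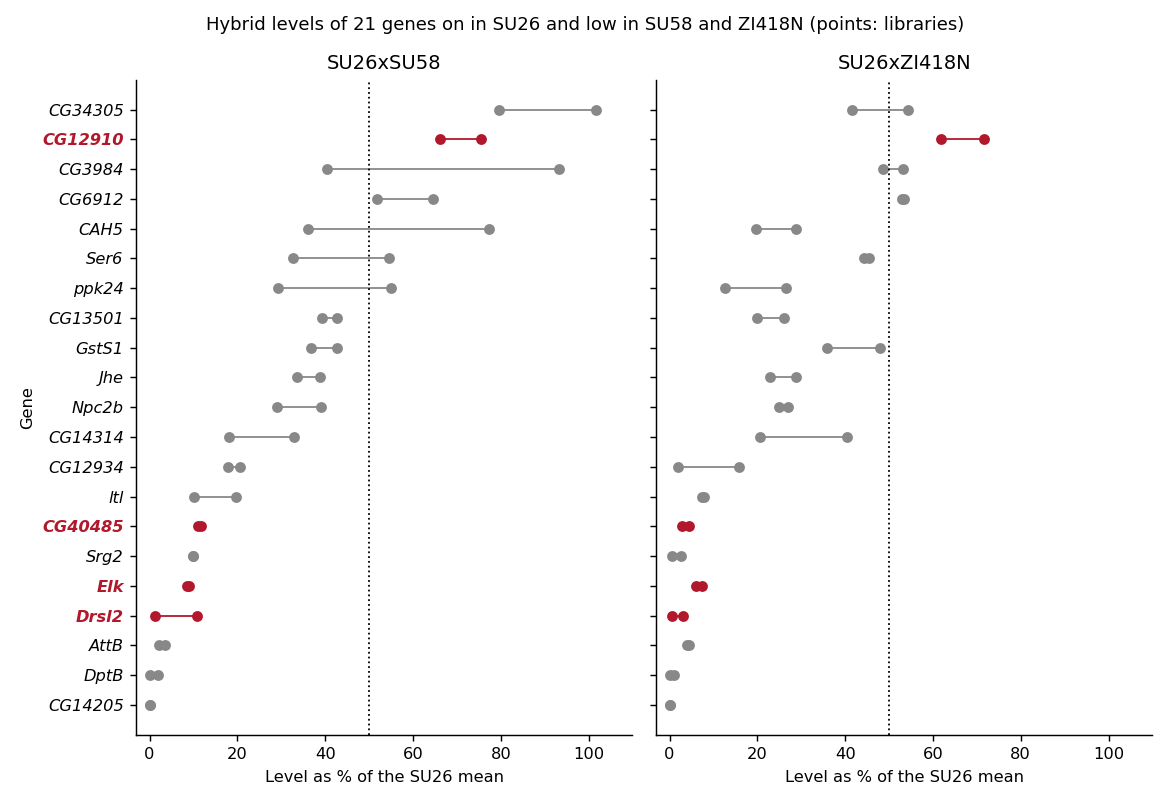
Level of 21 genes in the hybrids SU26xSU58 and SU26xZI418N as percent of the SU26 mean. Points are libraries joined by a line, the 4 genes described here are in red, and the dotted line marks 50%. CG12910 lay at 61.9% or more in all 4 libraries, and CG40485, Elk and Drsl2 at 11.7% or less.

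Expression of the 4 genes was not shared by most of their neighbours on the chromosome. Positions are from the Ensembl annotation of BDGP6, and the build behind the counts may be another. Of the 3 genes before and 3 after each member, Drsl3 was the only one called lower in both SU58 and ZI418N than in SU26, of 15 neighbours that passed the filter. Syb (adjusted p = 0.0226), CAP (0.0478), Mapmodulin (0.0049) and CG12009 (0.0225) were called lower in SU58 but not in ZI418N. In SU58 9.56% and in ZI418N 13.1% of genes tested were called lower than in SU26. The share of all genes called lower in both lines was not counted, so that these calls do not set the neighbours apart from other genes.

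CG12910 lies on 2R from 10265057 to 10269205 on the plus strand and shares 101 exonic bases with the next gene, CAP, on the same strand. CAP stood at 129 to 235 CPM over the 12 libraries. The SU26 libraries had 174 and 235 CPM. SU58 had 135 and 146 CPM and was called lower (log2 fold change -0.54, adjusted p = 0.0478), whereas ZI418N, with 159 and 161 CPM, was not called (adjusted p = 0.144). In the hybrids it had 162 and 129 CPM in SU58xZI418N and 163 and 144 CPM in SU26xSU58, and SU26xZI418N had 150 and 131 CPM. Reads in the shared part may have been counted for either gene. The other neighbours, among them Syb and RNaseZ, varied by less than 1.5 times between genotype means or were near the limit of detection, except CG12909 at 3.26 CPM in SU26xZI418N and 0.907 CPM in SU26.

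CG40485 lies on X from 22960609 to 22962360 on the minus strand, 517 bases from CG40486, a related short-chain dehydrogenase gene. CG40486 stood at 15.6 and 12.1 CPM in SU26, 17.4 and 17.3 CPM in SU58, and 11.6 and 13.2 CPM in ZI418N. It was not called in SU58 (adjusted p = 0.12) or ZI418N (0.417) against SU26.

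Elk spans 2R from 17873939 to 17926695 on the plus strand, and 5 genes lie within it without sharing exons. Of these CG30325 was detected at 0.198 and 0.259 CPM in SU26, with 0 counts in SU58, ZI418N and 9 of the 10 libraries outside SU26. CG30110 stood at 0.198 and 0.0576 CPM in SU26, with 0 counts in all but 1 of the other libraries. CG14491 was likewise seen at 0.231 and 0.0576 CPM in SU26, with at most 1 count in any other library. These are few counts, from 2 to 9 per SU26 library. Reads from the introns of Elk may have been counted for these genes, which was not tested. CG14492 had 1 and 2 counts in SU26, 1 and 1 in SU58, and 0 or 1 in the other libraries. PPO1, which also lies within Elk, stood at 6.44 and 2.97 CPM in SU26 and was not called in SU58 (adjusted p = 0.209) or ZI418N (0.0794) against SU26. The gene before Elk, Mapmodulin, was expressed in every genotype, from 48.5 CPM in SU58 to 86.0 CPM in SU26xZI418N. It was called lower in SU58 than in SU26 (log2 fold change -0.73, adjusted p = 0.0049) but not in ZI418N (0.103).

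**Figure D4:**
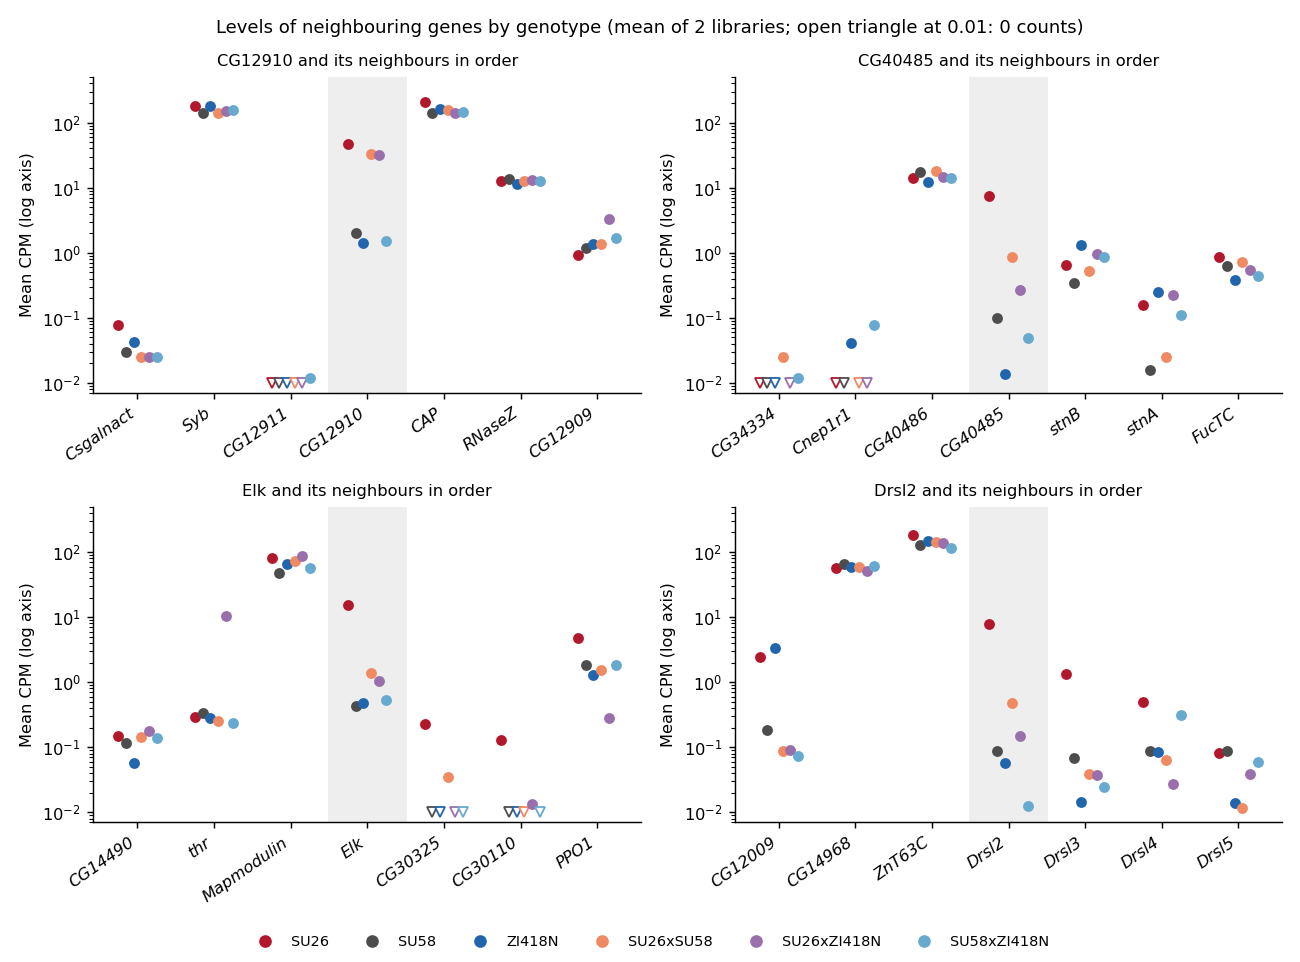
Mean CPM, on a log axis, of each of the 4 genes (grey band) and of the 3 genes before and after it in chromosome order, for the 6 genotypes. Open triangles are genotypes with 0 counts. Near Elk and Drsl2 a few genes with low levels (CG30325, CG30110, Drsl3) were also highest in SU26, while CG40486, CAP and ZnT63C were expressed in all genotypes.

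Drsl2 lies on 3L from 3314349 to 3314681 on the plus strand, at the head of a row of drosomycin-like genes. Its nearest relative on the chromosome, Drsl3, begins 314 bases further on. Drsl3 stood at 1.65 and 1.04 CPM in SU26 and at 0.134 CPM or less in every other library, from 5 counts or fewer. It was lower than SU26 in SU58 (log2 fold change -4.18 ± 0.99, adjusted p = 0.0203) and in ZI418N (-6.27 ± 1.22, adjusted p = 0.0060). Drsl3 had more than 5 counts only in the SU26 libraries, and passed the filter through them. In the hybrids with an SU26 genome it had 0 to 3 counts per library, too few for the tests between hybrids to decide (adjusted p at least 0.859). Drsl4 stood at 0.727 and 0.259 CPM in SU26 and at up to 0.472 CPM in SU58xZI418N replicate 2. CG12009, before Drsl2, stood at 1.95 and 3.00 CPM in SU26, 5.82 and 0.886 CPM in ZI418N, and 0.0508 to 0.124 CPM in the hybrids. It was called lower in SU58 than in SU26 (log2 fold change -3.76, adjusted p = 0.0225). Drosomycin-like genes resemble each other in sequence, and reads from one may have been counted in another.

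Drs itself showed another order. It stood at 78.7 and 54.4 CPM in SU26, 59.3 and 60.3 CPM in SU58, and 218 and 296 CPM in ZI418N, and was higher in ZI418N than in SU26 (log2 fold change 1.95 ± 0.38, adjusted p = 0.0061). In SU26xSU58, where Drsl2 was higher in replicate 2, Drs also was, at 149 against 65.9 CPM. SU26xZI418N showed the reverse, with Drs at 218 CPM in its replicate 1 against 174 CPM. Of 7 genes of the drosomycin family, 4 passed the filter. Drsl2, which was chosen for this, and Drsl3 were called lower than SU26 in each other line and Drs was called higher in ZI418N. Of all genes tested, 9.56% were called lower in SU58 and 13.1% in ZI418N, where 10.9% were called higher. With so few genes the family cannot be set apart from all genes. Drsl1 had 0 counts in all libraries.

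Calls against SU26 among genes of the Toll pathway were too few to set the list apart from all genes. Of 18 genes, all tested, 1 was lower and 2 were higher in SU58 than in SU26, where 9.56% and 8.06% of genes were called lower and higher. The lower gene was PGRP-SA, a peptidoglycan recognition gene (log2 fold change -2.16 ± 0.58, adjusted p = 0.0345). It stood at 23.8 and 16.4 CPM in SU26, 4.01 and 5.02 CPM in SU58, and 19.1 and 3.85 CPM in ZI418N, whose libraries lay far apart. In the hybrids PGRP-SA stood at 5.40 to 6.56 CPM with an SU26 genome and at 3.13 and 4.34 CPM without one, and it was not called between hybrids (lowest adjusted p = 0.531). The median log2 fold change was -0.03 over the list and 0.01 over all genes. In ZI418N 2 were higher and 0 lower than in SU26, with 13.1% of genes called lower and 10.9% called higher. Those higher were GNBP1, a recognition gene, and spz, which encodes the ligand of Toll. Between hybrids spz and GNBP1 were lower in SU26xSU58 than in SU58xZI418N, and GNBP1 was lower in SU26xZI418N than in SU58xZI418N, with 1.62% and 1.58% of genes called lower. The gene spz was higher in SU26xZI418N than in SU26xSU58 (log2 fold change 5.07 ± 0.53, adjusted p = 0.0011). GNBP1 had a log2 fold change of -0.94 ± 0.14 in SU26xSU58 against SU58xZI418N (adjusted p = 0.0082). The receptor gene Tl was not called between hybrids (lowest adjusted p = 0.0612).

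The relatives of Elk, sei and eag, were low in SU26. The gene sei stood at 0.397 and 0.547 CPM in SU26, within the range of the other libraries, 0.203 to 2.07 CPM, of which the highest was SU26xZI418N replicate 2, the library with germ line transcripts. The gene eag had 1 to 10 counts per library. Of 16 other potassium channel genes 14 were tested. Against SU26, 1 was higher and 1 lower in SU58, where 8.06% and 9.56% of all genes were called, and 1 was higher and 1 lower in ZI418N, where 10.9% and 13.1% were. The gene called lower was galene in SU58 and Sh in ZI418N, so that none of the 14 was lower in both. Task6, a channel gene too low to be tested, had 12 and 10 counts in SU26 and 0 to 3 counts in each of the other 10 libraries. Between the hybrids that share SU26, where 1.72% of genes were called higher and 3.01% lower in SU26xZI418N, galene was higher in SU26xZI418N (log2 fold change 1.75 ± 0.26, adjusted p = 0.0073) and KCNQ, a voltage-gated channel gene, was lower (-0.84 ± 0.18, adjusted p = 0.0315). The channel gene sand did not pass there (-1.71 ± 0.45, adjusted p = 0.0662).

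Among short-chain dehydrogenases related to CG40485, Rdh1 and sni were also lower in both other lines than in SU26. Of 15 genes matched, 13 were tested. In SU58 3 were lower and 3 higher than in SU26, where 9.56% and 8.06% of all genes were called, and in ZI418N 5 were lower and 2 higher, where 13.1% and 10.9% were, each count with CG40485, chosen for its level in SU26, among the lower genes. Rdh1 stood at 57.3 and 55.2 CPM in SU26, 22.8 and 23.3 CPM in SU58, and 20.5 and 21.1 CPM in ZI418N (log2 fold changes -1.29 ± 0.09 and -1.43 ± 0.09, adjusted p = 3.73e-05 and 1.30e-05). It stood at 23.7 to 26.3 CPM in the hybrids with an SU26 genome and at 23.4 and 21.5 CPM in SU58xZI418N. sni, which encodes the carbonyl reductase Sniffer, had log2 fold changes of -0.54 ± 0.15 and -0.64 ± 0.15 (adjusted p = 0.0388 and 0.0146). CG18814 was higher in both lines (1.48 ± 0.11 and 1.51 ± 0.11). Between hybrids 1 tested gene besides CG40485 was called, CG2065, lower in SU26xZI418N than in SU26xSU58 (-1.37 ± 0.27, adjusted p = 0.0231), where 3.01% of all genes were called lower.

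Across the 12 libraries Elk, CG40485 and Drsl2 resembled each other more than they resembled CG12910. The Pearson correlation of log2 CPM was 0.956 between Elk and CG40485, 0.927 between Elk and Drsl2 and 0.912 between CG40485 and Drsl2. That of CG12910 with the others was 0.844, 0.752 and 0.689, with CG40485, Elk and Drsl2. These values describe libraries of 6 genotypes that share lines, and the pattern used to pick the genes contributes to them.

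The tested genes most like CG12910 over the 12 libraries were CG3984 (r = 0.978), CG32333 (0.976) and Jhe (0.976). Those most like CG40485 were CG32641 (0.979), CG2017 (0.961) and CG32640 (0.961). CG2017 stood at 87.0 and 76.6 CPM in SU26, 34.6 and 28.8 CPM in SU26xSU58, 24.0 and 23.7 CPM in SU26xZI418N and 16.0 to 24.0 CPM in the other libraries, so that the hybrids overlapped the low lines or lay just above them.

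Those most like Elk were GILT2 (r = 0.977), Rdh1 (0.974) and Fnta (0.967). GILT2, of the family of lysosomal thiol reductases, stood at 82.5 and 79.2 CPM in SU26, 23.1 and 17.6 CPM in SU26xSU58, 16.8 and 11.7 CPM in SU26xZI418N and 5.75 to 8.46 CPM in the other libraries. Its hybrids with an SU26 genome thus lay above every library without one, and far nearer to these than to SU26. Those most like Drsl2 were CG9062 (0.968), Dgp-1 (0.952) and dome (0.951), the receptor gene of the JAK/STAT pathway. Dgp-1 stood at 67.3 and 69.2 CPM in SU26 and at 24.7 to 33.6 CPM in all other libraries, those of the hybrids with an SU26 genome included.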

How the data were processed

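Per the labels' protocols, poly-A RNA of dissected tubules was sequenced as paired reads of 125 bases. The authors deposited whole-number counts per gene and a gene length, per the file headers, with no normalization. The sources used here give no aligner, counter, build or rule for reads matching several genes. Members, gene lists and tests were chosen with earlier results of these data known.

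All 12 libraries were fitted together with a mean per genotype in edgeR 4.0.16 (R 4.3.3), with TMM factors, filterByExpr (9302 genes kept), 6 residual degrees of freedom and Benjamini-Hochberg adjustment over all genes tested. The fit was tested on simulated data. These gave every gene the same spread and changed only genes with means above the limit of detection. They do not cover groups with few counts, as for CG40485 and Drsl2. Alternatives were DESeq2 1.42.0, its size factors, no filter, a replicate block and leaving out libraries. Log2 CPM used a prior count of 2. Of 13919 identifiers, 13749 were in the name table. The list members antdh and nos were not matched.

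Genes named are the 4 members, up to 3 per family list by lowest adjusted p between hybrids, 3 neighbours on each side and the 3 genes most correlated with each member. Exceptions chosen after their values were seen are other list members called in parental contrasts, genes within Elk, Task6, hemocyte markers, and genes of the group of 21 or at its limit. Promoters and proteins were not analysed here. Libraries of a genotype were checked not to be copies (mean chi-square per gene from 12.9 to 116).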

Additional observations from a re-analysis of the deposited data

How the results depend on the processing

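CG12910 kept its direction and its call in both comparisons with SU58xZI418N under all 17 alternatives (adjusted p at most 3.37e-04). The count of genes called moved more. For SU26xSU58 against SU58xZI418N, 269 genes were called, 501 with DESeq2, and 92 to 333 when a library was left out. For SU26xZI418N against SU58xZI418N, 192 genes were called, 659 with DESeq2, 57 to 1537 when a library was left out, and 46 without SU58 replicate 1 and SU26xZI418N replicate 2 together. For SU26xZI418N against SU26xSU58, 440 genes were called, 1149 with DESeq2, 156 to 1903 when a library was left out, and 118 without those 2 libraries together. The highest counts of the last 2 comparisons came without SU26xZI418N replicate 1, which leaves the library with germ line transcripts alone. The share of all genes called, set beside the members' counts, moves with these counts, and the cause was not tested.

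With the replicate number as a block, 266, 162 and 366 genes were called in the 3 comparisons, and Elk passed in SU26xSU58 against SU58xZI418N (adjusted p = 0.0401). The labels do not say that a number marks a shared batch, and deviations of same-numbered libraries correlated over 0.1 in 4 of 15 pairs of genotypes (-0.22 to 0.32), so that the numbers were not taken to pair libraries. No other call of a member changed under the block.

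With unscaled library totals CG12910 in SU26xZI418N stood at 74.7% of SU26, and SU26xSU58 at 12.01% for CG40485 and 9.35% for Elk. Leaving out a library of SU26 or of the hybrid gave, in SU26xSU58, 66.1% to 75.5% for CG12910, 8.875% to 15.8% for CG40485, 6.94% to 12.2% for Elk and 1.17% to 10.7% for Drsl2. In SU26xZI418N it gave 61.9% to 71.6%, 2.81% to 5.0%, 5.26% to 9.23% and 0.679% to 3.14%. The difference between the hybrids that share SU26 ranged on the log2 scale from -0.1965 to 0.0203 for CG12910 and from -3.018 to 0.7094 for Drsl2 when a library was left out, and was 0.02048 for CG12910 without SU58 replicate 1 and SU26xZI418N replicate 2 together. None of these sign changes concerned a called difference. The 21 genes with the parental pattern became 8 at 5% of SU26, 39 at 20%, 8 with at least 5 CPM and 20 to 32 when a parental library was left out. All 4 members stayed among them in each case, which their choice by the same parental levels favours. Counts of 0 to 5 per library in the genotypes without an SU26 genome, and few in SU26xZI418N, limit what can be said of Drsl2 and CG40485.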
